A study of Mus musculus with 18 samples.

Results

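The semaphorins, plexins and neuropilins are a family of guidance ligands and their receptors, and all 31 members listed by symbol were found among the 55469 genes of the prostate RNA sequencing tables. They comprise 20 semaphorins, 9 plexins and 2 neuropilins. Total RNA was taken from ventral plus lateral lobes of the prostate in male C56NL/6N mice (strain as labelled), aged 10 or 30 weeks, with 3 mice in each of 6 groups. WT mice (ELAC2+/+) were compared with KO mice (ELAC2-/-) and with A537T mice, which carry the Ala537Thr change on both copies of ELAC2 in the whole body. In KO mice an exon of Elac2 is removed by Cre under the probasin promoter, so stroma, vessels and immune cells of a KO gland keep the gene. The groups were littermate-matched, and no group analysed here carried the TRAMP transgene. Mutants were set against WT mice of equal age, so the same 3 WT libraries serve both lines.

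Semaphorins are secreted or membrane-bound ligands that steer axons, vessels, epithelial cells and leukocytes. Plexins are their receptors. Neuropilins are co-receptors that let secreted class 3 semaphorins act through A-type plexins, and they also bind VEGF. In epithelia, B-type plexins are known to couple to the receptor tyrosine kinases Met and ErbB2.

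The libraries differed in how much RNA of neighbouring tissue they held, and this sets the order of the results. The study's protocol removed the seminal vesicles during dissection. The 8 seminal vesicle markers nevertheless took 4.64, 1.76 and 0.000808% of counts in the WT libraries 10AF, 11AF and 12AF at 10 weeks. They took 9.47, 6.55 and 10.3% in the KO libraries 13AF, 14AF and 15AF, and 0.191, 0.136 and 0.0374% in the A537T libraries 16AF, 17AF and 18AF. At 30 weeks the WT libraries held at most 0.000335%. At that age the KO libraries 4AF, 5AF and 6AF held 8.53, 7.13e-05 and 6.32%, and the A537T libraries 7AF, 8AF and 9AF held 7.24, 7.99e-05 and 9.17%. Some of the 8 markers were at 0 in 12AF, 18AF, 2AF, 3AF, 5AF and 8AF (3 to 5 of them, Svs3b in each), and none was at 0 in a library above 1%. The WT values are those of the KO tables here and wherever no table is named. The 16 skeletal muscle markers took 1.64 to 5.70% in WT, 0.0272 to 0.903% in KO and 0.545 to 1.74% in A537T libraries at 10 weeks, and at most 0.0372% at 30 weeks. Markers of prostate epithelium were present in every library, at 0.129% of counts or more. Libraries held 6569642 to 11225281 reads. Elac2 itself had 124 to 166 normalized counts in WT and 111 to 119 in KO at 10 weeks, and 150 to 194 against 98.4 to 151 at 30 weeks. In A537T it had 158 to 173 at 10 weeks and 114 to 189 at 30 weeks. The count covers the whole gene, including what the deletion leaves, so it checks the genotype only in part.

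In both tables at 30 weeks, 3 members passed the test for following the seminal vesicle share, and the sequence upstream of each is shown because these genes moved together. They are Plxna2 and Plxnb1, an A-type and a B-type plexin, and Sema5a, a membrane-bound semaphorin with thrombospondin repeats. The 250 bases before each start site are taken from RefSeq on GRCm38.p6, 5′ to 3′ on the forward strand, at chr1:194619579-194619828 for Plxna2, chr9:109095186-109095435 for Plxnb1 and chr15:32244563-32244812 for Sema5a. Capitals mark every GC box, GGGCGG or CCGCCC on the other strand, with overlapping matches run together.
Plxna2: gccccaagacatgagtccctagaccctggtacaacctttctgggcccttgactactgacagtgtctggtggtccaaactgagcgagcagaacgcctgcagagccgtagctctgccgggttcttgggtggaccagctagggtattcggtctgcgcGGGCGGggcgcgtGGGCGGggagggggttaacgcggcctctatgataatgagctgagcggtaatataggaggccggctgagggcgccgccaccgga
Plxnb1: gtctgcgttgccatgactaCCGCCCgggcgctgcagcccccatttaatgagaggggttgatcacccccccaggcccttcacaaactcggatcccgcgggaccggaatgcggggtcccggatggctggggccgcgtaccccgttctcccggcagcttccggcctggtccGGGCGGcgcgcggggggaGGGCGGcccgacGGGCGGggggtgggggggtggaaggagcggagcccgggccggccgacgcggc
Sema5a: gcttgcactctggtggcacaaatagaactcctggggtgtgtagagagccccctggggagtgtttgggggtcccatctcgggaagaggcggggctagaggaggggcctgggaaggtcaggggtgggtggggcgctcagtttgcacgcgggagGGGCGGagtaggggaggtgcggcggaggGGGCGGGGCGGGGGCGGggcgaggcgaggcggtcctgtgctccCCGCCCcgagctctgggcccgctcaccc

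The GC box occurred 2 times upstream of Plxna2, 4 times upstream of Plxnb1 and 5 times upstream of Sema5a, counting overlaps. Of all 32851 windows of this length, 32.7% held a GC box on either strand, as did 27 of the 37 windows of the 26 members in the table. An androgen receptor half-site, TGTTCT or AGAACA on the other strand, was in none of the 3 windows shown, in 7 of the members' 37 windows and in 16.1% of all windows. These are matches of letters and not measured binding.

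Levels were compared between genes only per length, as normalized counts divided by the exonic length of the gene and scaled so that each library has the same total, the unit known as TPM. Plxnb2, a B-type plexin of many epithelia, stood first, with a median over the 18 libraries of 17.7 TPM. Its level per length in the 10-week libraries was 20.0, 18.5 and 10.6 in WT, 23.3, 17.8 and 25.1 in KO, and 18, 17.6 and 21.1 in A537T. At 30 weeks it was 16.8, 13.7 and 16.2 in WT, 13.4, 26.0 and 11.7 in KO, and 14.7, 22.3 and 13.9 in A537T. The highest value of each mutant group at 30 weeks was in the library with next to no seminal vesicle RNA, 5AF or 8AF.

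Sema4a, a membrane-bound ligand known from immune cells and retina, came next with a median of 15.6 TPM. Its level per length at 10 weeks was 19.8, 17.4 and 11.4 in WT, 19.7, 14.3 and 17.4 in KO, and 19.0, 16.9 and 17.1 in A537T. At 30 weeks it was 12.9, 13.9 and 18.6 in WT, 8.32, 16.9 and 9.51 in KO, and 11.4, 13.9 and 6.60 in A537T. The ranges of Plxnb2 and Sema4a over the 18 libraries overlapped, at 10.6 to 26.0 and 6.60 to 19.8 TPM. For neither gene did a mutant group stand apart from its WT group on this scale.

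Sema3c, a secreted class 3 ligand of epithelia and vessels, had a median of 6.84 TPM. Its level per length at 10 weeks was 13.2, 7.64 and 7.11 in WT, 12.7, 9.18 and 13.7 in KO, and 11, 9.61 and 14.6 in A537T. At 30 weeks it was 3.05, 5.30 and 5.70 in WT, 6.57, 4.80 and 5.28 in KO, and 6.30, 4.59 and 6.10 in A537T. Every 10-week library lay above every 30-week library for Sema3c, with 7.11 as the lowest value at 10 weeks and 6.57 as the highest at 30 weeks. Sema3g, Sema6b, Sema6d, Sema7a and Plxnd1 also lay higher per length in every 10-week library than in every 30-week library. The share of all genes that lay apart by age in this way was not counted. The pattern is therefore not shown to be particular to these members. By normalized count, from tables normalized separately, Sema3c overlapped between ages, with 333 in 11AF at 10 weeks and 483 in 4AF at 30 weeks. A level per length also depends on the other RNA in its library, so this difference is given without a test.

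Plxna1, a broadly used A-type plexin with neuropilins as co-receptors, had a median of 5.97 TPM and a range of 3.46 to 9.67. Its level per length at 10 weeks was 6.74, 6.54 and 4.23 in WT, 6.97, 5.0 and 7.01 in KO, and 6.56, 6.78 and 9.67 in A537T. At 30 weeks it was 4.83, 3.64 and 7.73 in WT, 4.81, 6.68 and 3.46 in KO, and 5.04, 5.41 and 3.51 in A537T. All 6 groups overlapped with at least one other group.

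Sema4b, a membrane-bound ligand, closed the first 5 with a median of 5.38 TPM. Its level per length at 10 weeks was 6.57, 5.53 and 2.7 in WT, 6.63, 5.03 and 8.02 in KO, and 4.98, 3.97 and 6.16 in A537T. At 30 weeks it was 5.23, 4.31 and 6.37 in WT, 4.65, 6.01 and 4.46 in KO, and 5.70, 6.55 and 3.86 in A537T. The lowest value was in the WT library 12AF, which held the most skeletal muscle RNA.

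**Figure D1:**
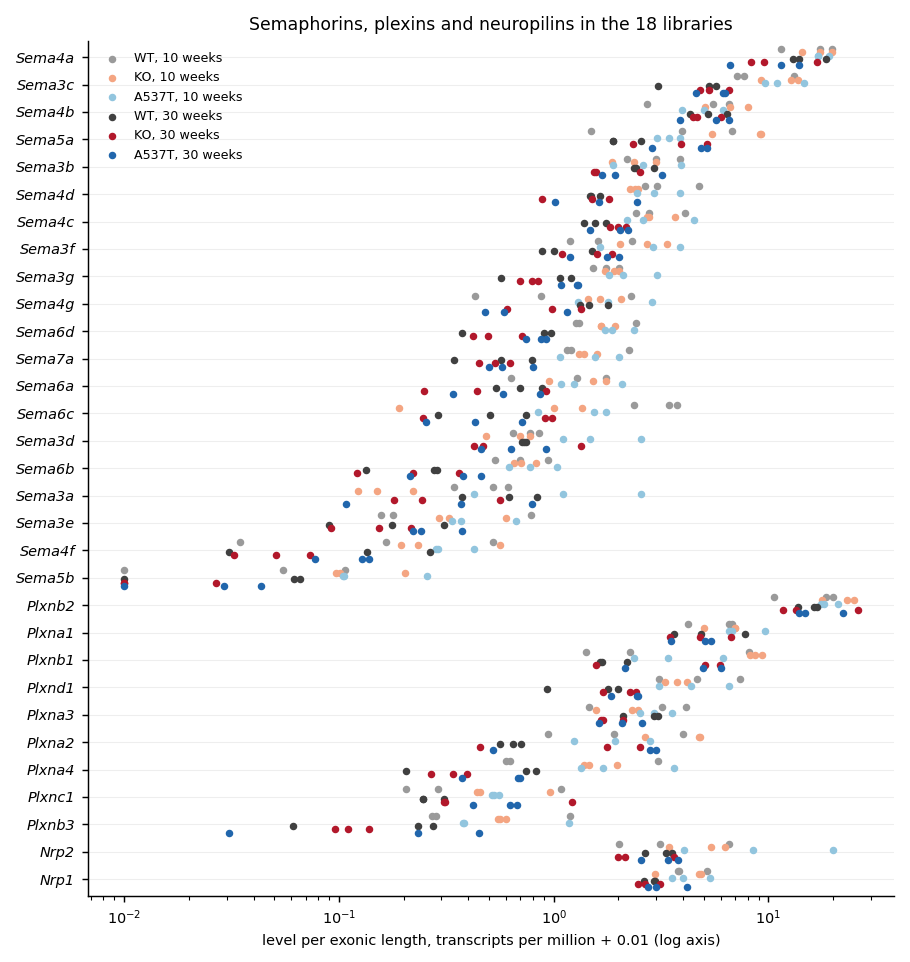
Level per exonic length of each of the 31 members in each of the 18 libraries, in TPM plus 0.01 on a log axis, with 1 point per library coloured by genotype and age. Members are ordered by median within semaphorins, plexins and neuropilins, and run from 17.7 TPM for Plxnb2 to 0.0486 for Sema5b.

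The other members lay lower. Plxnb1, Sema5a, Nrp2 and Nrp1 had medians of 4.18, 3.90, 3.48 and 3.33 TPM. Plxnd1, the receptor of Sema3e, and Plxna3, Sema3b, Sema4d and Sema4c lay between 2.20 and 2.77. Plxna2, Sema3f, Sema3g, Sema4g and Sema6d lay between 1.11 and 1.92, and Sema7a, Sema6a, Sema6c, Sema3d and Plxna4 between 0.708 and 0.928. Sema6b, Plxnc1, Sema3a, Plxnb3, Sema3e, Sema4f and Sema5b had medians of 0.487 TPM or less. In bulk tissue, fewer cells of a type and less RNA per cell cannot be told apart.

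The comparison of genotypes was made on log2(normalized count + 1), so folds of low genes are understated, over genes averaging 10 or more normalized counts in a table. Of the 31 members, 29 could be tested in each 10-week table, 27 in the 30-week KO table and 28 in the 30-week A537T table. Sema4f and Sema5b were too low in all 4 tables, Sema6b in both 30-week tables and Plxnb3 in the 30-week KO table. In the tables where they were not tested, no library exceeded 17.6 for Sema4f, 11.7 for Sema5b, 15.3 for Sema6b and 16.1 for Plxnb3.

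No member passed the test between genotypes in limma at either age in either line, at an adjusted p threshold of 0.05, and over all genes tested the share called was also 0% every time. Without adjustment, 5 of 29 members had p under 0.05 for KO at 10 weeks, where 19.4% of all genes reached it. For A537T at 10 weeks there were 2 of 29 against 6.43% of all genes, for KO at 30 weeks 3 of 27 against 11%, and for A537T at 30 weeks 6 of 28 against 13.6%. Counting instead the members whose 3 mutant values lay wholly outside the 3 WT values gave 5, 3, 3 and 4 members, where 26.0, 11.9, 16.3 and 18.6% of all genes did so. The members' shares lay near or below those of all genes, except in the unadjusted count for A537T at 30 weeks, where the share was higher. The median log2 fold change of the members was 0.03, 0.22, 0.08 and 0.22 in that order, with -0.01, 0.01, -0.01 and -0.01 over all genes. On recovered reads edgeR also called 0 members in all 4 comparisons. DESeq2 called Sema3a and Sema6c for KO at 10 weeks, where it called 2.69% of all genes with a p-value, and Plxnb1, Sema4g and Sema5a for A537T at 30 weeks, where it called 1.77%. Without the WT library 10AF, limma called 7 of 29 members for KO at 10 weeks against 19.2% of all genes.

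The seminal vesicle share was then entered beside genotype. With that term in the fit, the term itself was called in 0 of 29 members in the 10-week KO table (0% of all genes), 1 of 29 in the 10-week A537T table (2.07%), 3 of 27 in the 30-week KO table (3.50%) and 3 of 28 in the 30-week A537T table (3.01%). At an unadjusted p under 0.05 these were 7, 10, 7 and 6 members, against 20.5, 24.0, 21.1 and 19.8% of all genes. The 3 members were Plxna2, Plxnb1 and Sema5a in both 30-week tables, and Sema5a alone in the 10-week A537T table. The 2 tables of an age share their WT libraries. In the 30-week tables the slope rests on the mutant libraries, and in the 10-week A537T table on the WT libraries.

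Plxna2, a receptor of class 3 and class 6 semaphorins, had the largest positive slope of the members in the KO tables. At 30 weeks it had 86.8, 88.7 and 82.2 normalized counts in WT and 444, 50.7 and 325 in the KO libraries 4AF, 5AF and 6AF. In the A537T libraries 7AF, 8AF and 9AF it had 434, 62.7 and 508. The 4 mutant libraries with seminal vesicle RNA lay above every WT library, and the 2 without it lay below every WT library. The slope was 0.38 ± 0.03 (SE) log2 units per percentage point of seminal vesicle counts in the KO table (limma, adjusted p = 0.00845) and 0.34 ± 0.03 in the A537T table (limma, adjusted p = 0.00559).

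At 10 weeks Plxna2 had 420, 200 and 125 normalized counts in the WT libraries 10AF, 11AF and 12AF, the order of their seminal vesicle shares. The KO libraries 13AF, 14AF and 15AF had 461, 330 and 477, again in that order of shares. The A537T libraries 16AF, 17AF and 18AF had 140, 235 and 287, the reverse of theirs. The slope in the KO table was 0.28 ± 0.05 per percentage point, which did not pass the test (limma, adjusted p = 0.138). In 10AF, 11AF and 12AF other markers had an order too. Prostate epithelium markers ran the same way (0.875, 0.415 and 0.160% of counts) and skeletal muscle markers in reverse (1.64, 2.89 and 5.70%). In 13AF, 14AF and 15AF epithelium markers (0.737, 0.967 and 1.10%) did not follow Plxna2. The part of epithelium in the 10-week values of Plxna2, Plxnb1 and Sema5a was not tested.

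Plxnb1, the receptor of Sema4d, followed the same libraries at 30 weeks. It had 154, 150 and 118 normalized counts in WT, 588, 99.1 and 520 in KO and 485, 147 and 503 in A537T. All 4 mutant libraries with seminal vesicle RNA were at 485 or more, while the other mutant libraries and WT of either table were at most 165. The slope was 0.32 ± 0.04 log2 units per percentage point in the KO table (limma, adjusted p = 0.0133) and 0.21 ± 0.03 in the A537T table (limma, adjusted p = 0.0182).

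At 10 weeks Plxnb1 had 477, 132 and 106 normalized counts in WT, 465, 570 and 522 in KO and 217, 161 and 350 in A537T. All but one of the KO values were above every WT value. Without the seminal vesicle term the KO difference was 1.45 ± 0.53 log2 units (limma, adjusted p = 0.218), and with it -0.29 ± 0.85 (limma, adjusted p = 0.996). In the 10-week A537T table the slope was 0.50 ± 0.12 per percentage point (limma, adjusted p = 0.0781).

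Sema5a, a ligand and receptor of class 5, was the only member whose 9 libraries above 1% of seminal vesicle counts all exceeded the 9 below it, both by normalized count and per length. The share of all genes that lay apart at this boundary was not counted, so the separation is not shown to be particular to Sema5a. The 1% boundary was chosen after the data were seen, and the shares on its sides ran from 1.76 to 10.3% and up to 0.191%. The normalized counts were 449 to 1004 (median 814) above it and 217 to 434 (median 357) below it. At 30 weeks Sema5a had 257, 328 and 357 in WT, 991, 289 and 790 in KO and 814, 380 and 952 in A537T. At 10 weeks it had 775, 449 and 217 in WT, 950, 734 and 1004 in KO and 427, 400 and 434 in A537T.

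The slope of Sema5a was 0.21 ± 0.03 log2 units per percentage point in the 30-week KO table (limma, adjusted p = 0.0165) and 0.15 ± 0.02 in the 30-week A537T table (limma, adjusted p = 0.0354). It was 0.40 ± 0.05 in the 10-week A537T table (limma, adjusted p = 0.0260) and 0.28 ± 0.06 in the 10-week KO table (limma, adjusted p = 0.147). The genotype difference of Sema5a at 30 weeks was 0.97 ± 0.43 in KO and 1.10 ± 0.34 in A537T, and with the seminal vesicle term -0.09 ± 0.20 and 0.30 ± 0.19. None of these 4 genotype values passed the test in limma, with adjusted p = 0.469, 0.293, 0.937 and 0.808.

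Smooth muscle markers also differed between these libraries at 30 weeks. All 5 were present in every library, and together they took 0.299 and 0.269% of counts in 4AF and 6AF and 0.293 and 0.316% in 7AF and 9AF. They took 0.185% in 5AF, 0.157% in 8AF and 0.161 to 0.220% in WT. At 10 weeks they took 0.426, 0.194 and 0.138% in the WT libraries 10AF, 11AF and 12AF. They took 0.444, 0.340 and 0.458% in 13AF, 14AF and 15AF, and 0.234, 0.368 and 0.667% in 16AF, 17AF and 18AF. Within each of these groups this was the order of Plxna2, also in A537T. It was not the order of Plxnb1 in KO, nor of Plxnb1 or Sema5a in A537T. The part of smooth muscle in the values and slopes of Plxna2, Plxnb1 and Sema5a was not tested. Leaving out the libraries above 1% leaves 1 mutant library against 3 WT at 30 weeks, and no member was called there in limma in either line. Without 5AF no member was called for the slope in the KO table, and without 8AF none in the A537T table. In those fits the share nearly coincides with genotype, and the genotype term itself was called for 3 of 27 members in KO (Plxna2, Plxnb1 and Sema5a) against 6.41% of all genes, and for 4 of 29 in A537T (the same 3 and Sema4g) against 8.27%. Without 4AF or 6AF the KO slopes were also called for 0 members, and without 9AF the A537T slopes for 0 and without 7AF for Plxna2 alone. Without 3AF the slope of Sema5a was not called in either table. In the 10-week A537T table the slope of Sema5a was not called without 10AF, 12AF or 17AF.

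**Figure D2:**
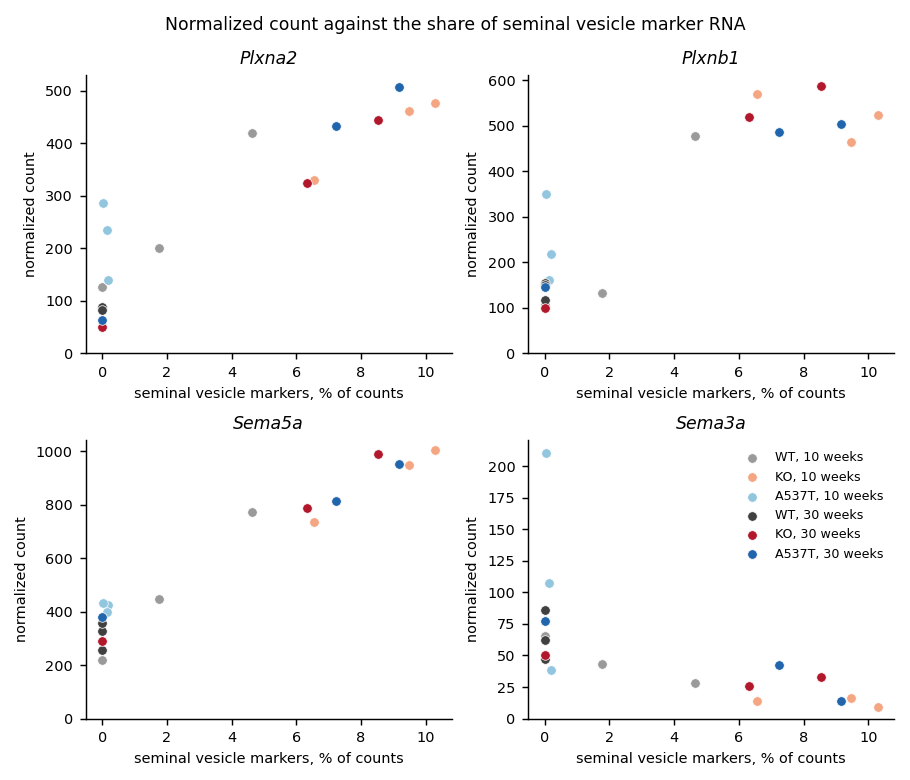
Normalized counts of Plxna2, Plxnb1, Sema5a and Sema3a (y axis from 0) against the percent of counts taken by the 8 seminal vesicle markers, with 1 point per library in the colours of genotype and age and the WT libraries as in the KO tables. Plxna2, Plxnb1 and Sema5a are high in the libraries at 6.32% or more, and Sema3a is at most 42.2 there.

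Nrp2 and Sema6a came next by p in the KO tables. The slope of Nrp2 at 10 weeks was 0.22 ± 0.05 log2 units per percentage point (limma, adjusted p = 0.147). Sema6a, a transmembrane ligand of A-type plexins, had 33.8, 56.4 and 57.4 normalized counts in WT and 82.4, 14 and 40.7 in KO at 30 weeks. The lowest value was in 5AF, and the slope was 0.28 ± 0.06 log2 units per percentage point (limma, adjusted p = 0.0501). In the A537T libraries at 30 weeks it had 63.3, 35.7 and 30.7. At 10 weeks it had 93.9, 68.3 and 42.8 in WT, 85.9, 59.7 and 77.7 in KO and 62.8, 77.1 and 109 in A537T. The groups overlapped in all 4 comparisons.

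Sema3c, the abundant secreted ligand named above, had 159, 355 and 306 normalized counts in WT, 483, 227 and 406 in KO and 381, 234 and 460 in A537T at 30 weeks. In both mutant groups the lowest of the 3 values was in the library without seminal vesicle RNA. The genotype difference was 0.45 ± 0.38 in KO and 0.40 ± 0.35 in A537T (limma, adjusted p = 0.671 and 0.628). At 10 weeks it had 576, 333 and 398 in WT, 508, 473 and 572 in KO and 522, 487 and 622 in A537T.

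With the seminal vesicle share held equal, genotype was called in 0 of 29 members for KO at 10 weeks (0% of all genes), 1 of 29 for A537T at 10 weeks (5.21%), 0 of 27 for KO at 30 weeks (0.00679%) and 0 of 28 for A537T at 30 weeks (0.0406%). At an unadjusted p under 0.05 there were 5, 13, 5 and 3 members, against 3.10, 25.5, 7.80 and 7.43% of all genes. For KO at 10 weeks all 5 were lower in KO, namely Plxna3, Plxnd1, Nrp2, Sema3b and Sema6a, and the adjusted p of each was 0.995. The genotype value changed sign with the added term in 19 of 29 members for KO at 10 weeks, 3 of 29 for A537T at 10 weeks, 9 of 27 for KO at 30 weeks and 10 of 28 for A537T at 30 weeks. At 10 weeks every KO library held more seminal vesicle RNA than every WT library, so genotype and share can hardly be told apart in that table.

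The member called at equal share was Sema4g, a transmembrane class 4 semaphorin, in A537T at 10 weeks. It had 123, 45.8 and 28.8 normalized counts in the WT libraries 10AF, 11AF and 12AF of that table and 74.5, 109 and 147 in A537T, so the groups overlapped. The difference was 1.83 ± 0.36 log2 units at equal share (limma, adjusted p = 0.0393) and 0.95 ± 0.53 without the term (limma, adjusted p = 0.749). The call was lost when skeletal muscle share was added or when the mean log2 level of the seminal vesicle markers replaced their share, with 0 members called in each case. It was also lost without 10AF, 11AF, 12AF or 17AF. The slope of Sema4g on the share in this table was 0.46 ± 0.11 (limma, adjusted p = 0.0743).

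At 30 weeks Sema4g stood the other way. It had 92.2, 130 and 129 normalized counts in WT and 42.2, 70.4 and 42.7 in A537T, so all A537T values were below all WT values. The difference was -1.18 ± 0.26 log2 units (limma, adjusted p = 0.226), and -0.73 ± 0.28 at equal seminal vesicle share (limma, adjusted p = 0.629). The 8 prostate epithelium markers, none at 0, took 0.303, 1.21 and 0.966% of counts in WT of that table and 0.200, 0.396 and 0.129% in 7AF, 8AF and 9AF. At 10 weeks they took 0.877, 0.406 and 0.155% in WT and 0.815, 0.891 and 1.04% in A537T, in the order of Sema4g within both groups. Their part in the Sema4g values was not tested. In KO at 30 weeks Sema4g had 118, 55.8 and 55.8 against 82.8, 117 and 116 in WT of that table. The change of the A537T difference from 10 to 30 weeks was -2.13 ± 0.64, which did not pass the test of that change (limma with an age-by-genotype term, adjusted p = 0.263).

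**Figure D3:**
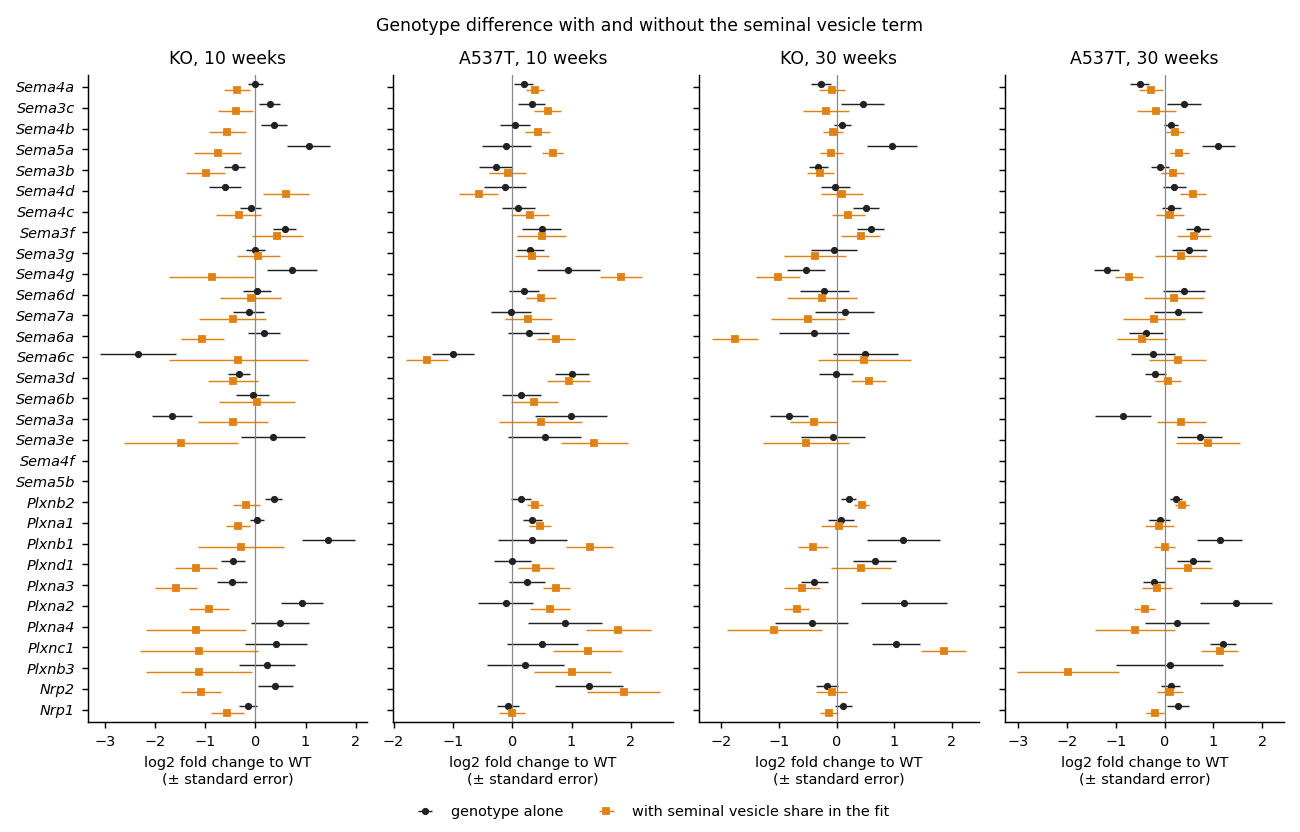
Log2 fold change of each mutant group to WT (x axis, log2 units, with standard errors) for each tested member, in 4 panels by line and age, from the fit of genotype alone (circles) and from the fit that also holds the seminal vesicle share (squares). At 30 weeks Plxna2 lies at 1.17 alone and -0.69 with the share in KO, at 1.46 alone and -0.41 with it in A537T, while Plxnc1 and Sema3f stay above 0 in both lines.

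Among secreted ligands, Sema3a, the ligand of Nrp1 that repels axons and acts on vessels, was lowest in KO at 10 weeks. It had 28.4, 43.3 and 65.3 normalized counts in the WT libraries 10AF, 11AF and 12AF and 16.3, 14.1 and 9.15 in KO. All KO values were below all WT values, and within WT the order was the reverse of the seminal vesicle shares. The difference was -1.68 ± 0.40 log2 units (limma, adjusted p = 0.183), and -0.45 ± 0.70 at equal share (limma, adjusted p = 0.995). With skeletal muscle share as the added term it was -0.84.

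At 30 weeks Sema3a had 61.9, 47.2 and 86.1 normalized counts in WT and 33.2, 50.7 and 25.6 in the KO libraries 4AF, 5AF and 6AF, so the groups overlapped through 5AF. The difference was -0.83 ± 0.33 log2 units (limma, adjusted p = 0.438), and -0.40 ± 0.41 at equal share (limma, adjusted p = 0.851). In 5AF alone against WT, the value was -0.31. The A537T libraries 7AF, 8AF and 9AF had 42.2, 77.1 and 14.2, with the highest again in the library without seminal vesicle RNA.

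In A537T at 10 weeks, Sema3a had 38.3, 108 and 211 normalized counts in 16AF, 17AF and 18AF, against 32.1, 46.7 and 71.4 in WT of that table. Nrp2, the co-receptor of Sema3f and of lymphatic VEGF, had 319, 708 and 1409 there, against 494, 229 and 190 in WT. Library 18AF was the highest of all 18 libraries for both genes, per length as well. The difference of Nrp2 was 1.29 ± 0.57 log2 units (limma, adjusted p = 0.746), and 1.88 ± 0.62 at equal seminal vesicle share (limma, adjusted p = 0.121). With muscle share added to that fit its sign turned, to -0.62.

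Sema3d, a secreted ligand, had 62.8, 89.4 and 131 normalized counts in A537T at 10 weeks and 42.5, 46.7 and 44.7 in WT. All A537T values were above all WT values. The difference was 1.00 ± 0.29 log2 units (limma, adjusted p = 0.746), and 0.95 ± 0.36 at equal share (limma, adjusted p = 0.163). With muscle share added to that fit its sign turned, to -0.60. At 30 weeks the A537T libraries had 45.2, 55.9 and 40.5 against 49.7, 60.8 and 50.5 in WT. The change of the difference between ages was -1.19 ± 0.36 (limma with an age-by-genotype term, adjusted p = 0.263).

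Library 18AF differed from 16AF and 17AF in markers of other cells too. The 3 basal epithelium markers, all present in every library, took 0.00701, 0.0167 and 0.0365% of counts in 16AF, 17AF and 18AF, and 0.00516 to 0.00861% in WT at 10 weeks. Smooth muscle markers took 0.234, 0.368 and 0.667%, and the 6 fibroblast markers, present throughout, took 0.143, 0.172 and 0.268%. In WT at 10 weeks these were 0.138 to 0.426% and 0.105 to 0.166%. The part of these cells in the values of Sema3a, Sema3d and Nrp2 was not tested. Nrp1, the other neuropilin, had 231, 276 and 312 normalized counts in the 3 libraries and 236 to 328 in WT.

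Sema6c, a transmembrane semaphorin, is given beside the skeletal muscle share at 10 weeks. It had 85.1, 124 and 174 normalized counts in the WT libraries 10AF, 11AF and 12AF, where muscle markers took 1.64, 2.89 and 5.70% of counts. The KO libraries 13AF, 14AF and 15AF had 6.01, 57.4 and 34.3, where they took 0.0272, 0.903 and 0.0275%. All KO values were below all WT values, with a difference of -2.34 ± 0.76 log2 units (limma, adjusted p = 0.192). With muscle share in the fit it was -1.27.

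In A537T at 10 weeks Sema6c had 33.0, 64.7 and 61.5 normalized counts against 72.5, 103 and 146 in WT, again with no overlap. Muscle markers took 1.74, 1.3 and 0.545% in these A537T libraries, so that Sema6c was lowest where the share was highest, unlike in WT. The part of muscle RNA in the Sema6c values was not tested beyond the fits with its share. The difference was -1.0 ± 0.36 log2 units (limma, adjusted p = 0.746), and -0.64 with muscle share in the fit. At 30 weeks, where muscle markers were at most 0.0372%, Sema6c had 12.1, 27.6 and 32.7 in WT, 55.3, 38.2 and 15.1 in KO and 21.1, 29.9 and 15.3 in A537T, and the groups overlapped. The change of the KO difference from 10 to 30 weeks was 2.84 ± 1.03 (limma with an age-by-genotype term, adjusted p = 0.332). Muscle markers at 0 included 5 of the 16 in 15AF, among them Myh4 and Ryr1.

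Sema3f, the secreted ligand of Nrp2, lay higher in the mutants of both lines at 30 weeks. It had 37.8, 42.6 and 58.4 normalized counts in WT and 84.9, 63.9 and 60.5 in KO. In the A537T table it had 36.9, 42.4 and 57.4 in WT and 88.4, 65.6 and 64.6 in A537T. No mutant normalized count reached down to a WT value in either line. Per length the groups overlapped, at 0.875 to 1.5 TPM in WT, 1.08 to 1.86 in KO and 1.2 to 2.01 in A537T. The differences were 0.59 ± 0.24 (limma, adjusted p = 0.443) and 0.67 ± 0.24 log2 units (limma, adjusted p = 0.317), and 0.42 ± 0.34 and 0.59 ± 0.35 at equal seminal vesicle share. In 5AF alone against the 3 WT libraries the difference was 0.48. At 10 weeks Sema3f had 50.9, 73.3 and 47.9 in WT and 97.9, 76.1 and 82.3 in KO, also with no overlap in normalized count but with overlap per length (1.2 to 2.31 against 2.03 to 3.37 TPM), and a difference of 0.58 ± 0.23 (limma, adjusted p = 0.241).

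Plxnc1, the receptor of Sema7a that leukocytes carry, also lay above WT at 30 weeks by normalized count. It had 14.5, 18.4 and 18.8 normalized counts in WT and 25.8, 66.8 and 26.8 in the KO libraries 4AF, 5AF and 6AF. The difference was 1.03 ± 0.42 log2 units (limma, adjusted p = 0.440), 1.86 ± 0.39 at equal seminal vesicle share (limma, adjusted p = 0.342) and 1.90 for 5AF alone. In the A537T table it had 14.4, 18.4 and 17.8 in WT and 47.2, 36.6 and 36.1 in 7AF, 8AF and 9AF, with a difference of 1.19 ± 0.27 (limma, adjusted p = 0.232) and 1.13 ± 0.38 at equal share (limma, adjusted p = 0.555). The 8AF library alone differed from WT by 1.08. Both mutant libraries without seminal vesicle RNA lay above WT. Per length KO overlapped with WT, at 0.298 to 1.21 against 0.236 to 0.300 TPM, while A537T did not, at 0.410 to 0.668. At 10 weeks Plxnc1 had 54.8, 9.99 and 18.4 normalized counts in WT, 44.7, 25.8 and 21.7 in KO and 28.7, 32.3 and 25.2 in A537T. Both mutant groups overlapped with WT there.

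Macrophage markers, all 7 present in every library, took 0.00881 to 0.00986% of counts in WT at 30 weeks. They took 0.00840, 0.0171 and 0.0104% in 4AF, 5AF and 6AF, so that 5AF was highest in KO for both the markers and Plxnc1. In 7AF, 8AF and 9AF they took 0.0168, 0.0261 and 0.0118%, but Plxnc1 was highest in 7AF. Their part in the Plxnc1 values was not tested. Sema7a, its ligand, had 8.04, 24.2 and 13.9 normalized counts in WT, 20.9, 9.55 and 18.6 in KO and 22.1, 11.6 and 19.7 in A537T.

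**Figure D4:**
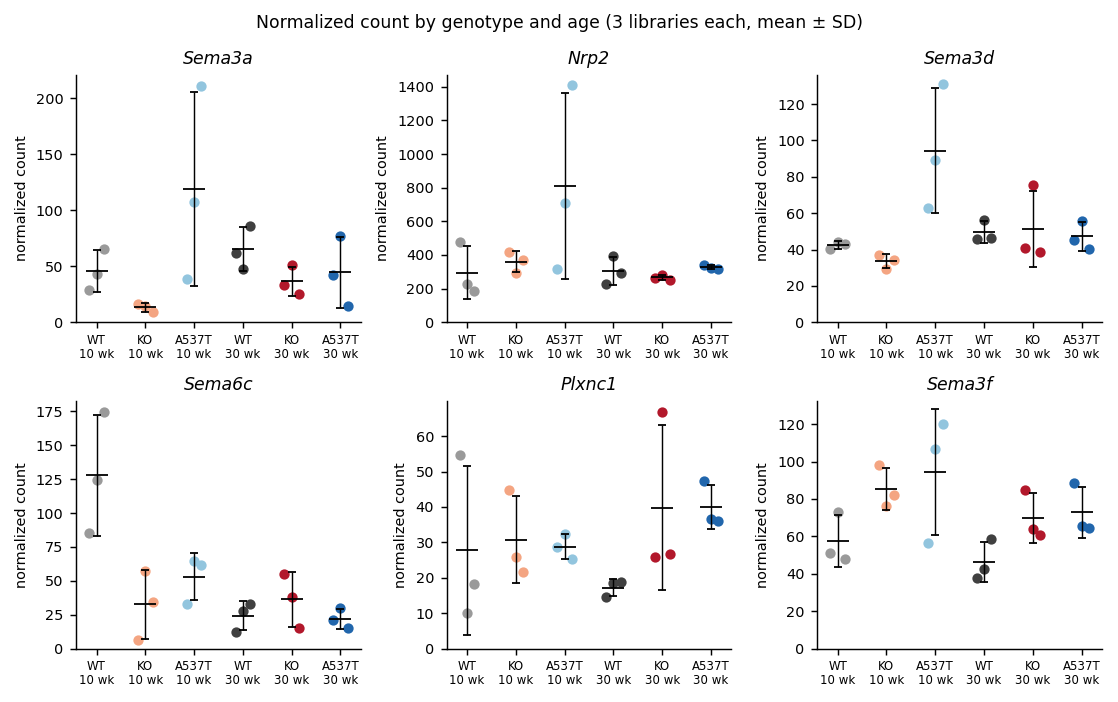
Normalized counts of Sema3a, Nrp2, Sema3d, Sema6c, Plxnc1 and Sema3f in the 3 libraries of each genotype and age (points), with the mean and SD (bars) and y axes from 0. Each group is drawn from its own table, with WT as in the KO tables, and the tables were normalized separately. Sema3f normalized counts lie above WT in both mutant groups at 30 weeks, and Nrp2 in A537T at 10 weeks ranges from 319 to 1409.

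The remaining members that stood apart from WT did so by small steps. Plxnb2 had 644 to 947 normalized counts in WT and 992 to 1129 in KO at 10 weeks, a difference of 0.36 ± 0.17 log2 units (limma, adjusted p = 0.285). Sema3d in KO at 10 weeks had 29.3 to 36.9 against 40.1 to 44.1. Plxna1 had 396 to 524 in A537T at 10 weeks against 309 to 390, and Sema3b had 75.0 to 80.3 in KO at 30 weeks against 84.2 to 108. Sema3e, Sema3g, Sema4a, Sema4b, Sema4c, Sema4d, Sema6d, Sema7a, Plxna3, Plxna4, Plxnd1 and Nrp1 overlapped with WT in all 4 comparisons, as did Sema6b and Plxnb3 where they were tested.

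The 38 other genes of the pathway, such as Micals, Crmps and receptor partners, gave no call either. All 38 could be tested at 10 weeks, 37 in the 30-week KO table and 36 in the 30-week A537T table, and none passed in limma. Those with an unadjusted p under 0.05 numbered 6, 1, 5 and 6, which sit beside the background shares of 19.4, 6.43, 11 and 13.6% given above. By direction, 27, 27, 21 and 25 of the pathway genes were higher in the mutants and 11, 11, 16 and 11 lower. The medians over all genes given above are the background for these directions, which were not tested.

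The named pathway genes are those with the smallest p in each comparison. Kdr, the VEGF receptor that works with neuropilins, had 239, 208 and 255 normalized counts in WT and 162, 163 and 139 in KO at 10 weeks, a difference of -0.59 ± 0.15 log2 units (limma, adjusted p = 0.183). Endothelial markers at the same age took 0.0109 to 0.0161% in WT and 0.0121 to 0.0142% in KO, so they overlapped. Mical3, an oxidase of the actin machinery, had 765, 635 and 666 in WT and 952, 939 and 963 in KO, with a difference of 0.47 ± 0.12 (limma, adjusted p = 0.183). In A537T at 10 weeks Mical2 differed by 0.43 ± 0.18 and the small GTPase Rras by 0.67 ± 0.31 (limma, adjusted p = 0.746 for both).

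At 30 weeks the kinase Gsk3b had 1131, 1187 and 1136 normalized counts in WT and 895, 964 and 826 in KO, a difference of -0.36 ± 0.10 (limma, adjusted p = 0.391). Met, a partner of B-type plexins, had 83.6, 207 and 181 in WT and 566, 261 and 352 in KO, a difference of 1.34 ± 0.40 (limma, adjusted p = 0.393). Cdk5, a kinase downstream of Sema3a, had 79.4, 72.3 and 83.1 in WT and 129, 147 and 106 in A537T, a difference of 0.69 ± 0.17 (limma, adjusted p = 0.260). Cd72, the Sema4d receptor of B cells, had 6.42, 5.73 and 9.90 in WT and 29.1, 38.6 and 23.0 in A537T, a difference of 1.91 ± 0.39 (limma, adjusted p = 0.215). The 5 B and plasma cell markers took 0.000670 to 0.00122% of counts in WT and 0.00407, 0.00762 and 0.00264% in 7AF, 8AF and 9AF, the same order as Cd72, with 1 marker at 0 in 1AF and in 2AF, and their part in it was not tested. Sema4d, its ligand, had 80.2, 115 and 82.1 in WT of that table and 105, 134 and 81.1 in A537T.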

How the data were processed

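Per the labels and the study's methods, the authors trimmed reads, aligned them with STAR 2.7.3a to GRCm38, quantified them with Salmon using strand, and scaled the gene counts with DESeq2 1.26. The deposited signal values are gene counts divided by 1 size factor per library, in 4 tables of 6 libraries normalized separately. The authors' tables of log2 fold changes, errors and s-values were not used. Columns carry no replicate number and were assigned to groups through the mean of each table and the WT columns found in both tables of one age. Reads were recovered as whole multiples of the smallest value (at least 99.98% of values within 0.02 of a whole number). For 4 of 24 columns an automatic check of these steps could not be applied, since the size factor is near 1. Libraries held 6569642 to 11225281 reads, median 8586877. A count of 0 allows up to 3 reads, or 4.57e-05% of the shallowest library. Such limits cover counting error only.

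Each table was fitted with limma 3.58.1 in R 4.3.3 on log2(normalized count + 1), eBayes with a mean trend, over genes with a mean of at least 10, two-sided, with p adjusted by the Benjamini-Hochberg method over all genes tested (threshold 0.05). A second fit added the percent of counts of the 8 seminal vesicle markers. Alternatives were pseudocount 8, minimum means of 1 and 100, no filter, totals scaled equal with and without marker genes, quantile normalization, no trend, muscle share as a term, marker log levels, edgeR 4.0.16 and DESeq2 1.42.0 on recovered reads, and leaving out each library. Leaving out the libraries above 1% of seminal vesicle counts and the fit with an age-by-genotype term were chosen after seeing the data. Scripts were tested on simulated data. Exonic lengths are from GENCODE on GRCm38. Of 55469 identifiers, 55107 matched a symbol after dropping versions. Levels by group come from Python 3.11.15 with pandas 2.3.3.

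Members, lists and markers were chosen with earlier results of these data known. Values are printed for the 3 members with the smallest p per comparison and per seminal vesicle term, the 5 most abundant, and Sema3a, Sema3c, Sema5a and Sema6a, which the study names for other lines. For the 38 pathway genes, they are printed for the 2 with the smallest p per comparison. Other members named with values were chosen after their values were seen. Nothing in the labels says whether mice of a group shared a litter, so p-values measure the spread between these libraries.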

Additional observations from a re-analysis of the deposited data

How the results depend on the processing

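The groups were littermate-matched, but no paired analysis was possible, because the labels name no litters and the columns carry no replicate numbers. Each group held 3 libraries, low members such as Sema4f and Sema5b had under 20 reads, and in the 10-week KO table the seminal vesicle share follows genotype. Without 10AF the KO comparison at 10 weeks called 7 members and 12 pathway genes, against 19.2% of all genes. Over all libraries left out the ranges were 0 to 7 and 0 to 12. DESeq2 called 2 members for KO at 10 weeks and 3 for A537T at 30 weeks, against 2.69 and 1.77% of all genes. It also called 1 pathway gene each for KO at 10 weeks, KO at 30 weeks and A537T at 30 weeks. At equal seminal vesicle share, A537T at 10 weeks had 0 members called with marker log levels and 0 with muscle share added, and 0 to 4 when a library was left out. The seminal vesicle slope there was called for 0 members with muscle share added and for 0 to 4 when a library was left out.

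With 1 library left out, the KO slope was called for 0 to 5 members at 10 weeks and 0 to 5 at 30 weeks. The A537T slope at 30 weeks was called for 0 to 7. Counts under alternative fits given without a share of all genes, here and above, show only how calls depend on processing. The genotype term was called for 0 to 3 members and 0 to 1 pathway genes (KO, 30 weeks) and 0 to 4 and 0 to 3 (A537T, 30 weeks). The highest member counts came without 5AF and without 8AF, where 6.41 and 8.27% of all genes were called. At equal share the genotype term was called for 0 to 2 and 0 to 1 members. Among the members with the smallest p between genotypes in each table, values at equal share that changed sign were Plxnb1 in KO at 10 weeks (0.93 with marker log levels, 0.025 with muscle share, and -2.30 to 2.23 over the libraries left out), and in A537T at 10 weeks Sema3d (-0.60) and Nrp2 (-0.62), both with muscle share. Leaving out 1 library gave -0.92 to 0.35 for Sema3a and -1.99 to 0.51 for Sema6c (KO, 10 weeks) and -0.98 to 0.60 for Sema3f (KO, 30 weeks). Among other members given at equal share, Plxna2, Plxnb1 and Sema5a in KO at 30 weeks came to 0.61, 1.38 and 0.40 without 5AF, Sema5a also to 0.03 with totals scaled without marker genes and 0.01 without 3AF, and Plxna2 in A537T at 30 weeks to 1.46 without 8AF. The cause was not tested. The median of the members for KO at 10 weeks was -0.33 with muscle share in the fit.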
